A study of Mus musculus with 11 samples.

Results

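Long-range contacts that were found again in several single cells were examined in Hi-C maps of mouse Th1 cells. The members are pairs of 1 Mb bins on the same autosome, at a bin distance of 5 or more, that held at least 1 contact in 3 or more of 10 single-cell maps. They were chosen by the number of cells with a contact, so that number is a description of the members and was not tested. Of 150552 autosomal bin pairs at this distance, 2146 (1.43%) met the rule, and they are called recurrent pairs here. The comparison group was the 34189 pairs (22.7%) seen in exactly 1 cell, called single-cell pairs.

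The maps came from CD4+ Th1 cells, a helper T cell type, grown from spleens of male C57BL/6 mice with anti-CD3 stimulation and then IL-2. Bgl II cut the chromatin of 9 cells and of the cell population behind the ensemble map, and Dpn II was used for cell 8 alone. No genotype or treatment differed between the maps, and the labels give neither the age nor the number of animals. The cells held 11156 to 30665 contacts, and cell 1 held the most. A pooled single-cell map, labelled bgl, held 1790816 autosomal cis contacts, of which 1650642 were left after the contacts of the listed cells were removed. The number removed was 140174, where the 9 Bgl II cells held 140244 and cell 8 held 9265. Cell 8 thus appears not to be part of the pool. The pool remainder and the ensemble (25251667 autosomal cis contacts) took no part in choosing the members. Contact maps carry no marker expression, so the labelled cell type was not checked. Nothing shows separate animals or cultures behind the cells, and there was 1 map each of the remainder and the ensemble. Differences between the 2 kinds of pairs are therefore given without a p-value, and the spread over the 10 cells may be technical.

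Hi-C ligates DNA ends that lie near each other in the nucleus, and in a single cell each fragment end can be joined at most to a few partners. A single-cell map is thus a sparse sample of the contacts that a fold made possible in that cell. In population maps, chromatin falls into compartments: active, gene-rich stretches contact each other more often than they contact inactive stretches, and inactive stretches do likewise. Long-range contacts in cis reflect this sorting as well as the general fall of contact frequency with distance. Here the classes are numbered: class 1 bins, 37.1% of those with a class, had a median of 607 Bgl II fragment ends and class 2 bins 528. No gene annotation of the mm9 build was used here, so the gene content of bins is not analysed here. No sequence is shown, because members are 1 Mb bins.

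Recurrence across cells was rare and reached 6 of 10 cells at most. A contact was found in 3 cells at 1801 pairs, in 4 cells at 295 and in 5 or 6 cells at 50, of which 2 pairs were seen in 6 cells. Just outside the rule, 8661 pairs were seen in 2 cells, and 105556 pairs were seen in none. Recurrent pairs held 12% of all long cis contacts of the 10 cells (8043 of 66982). By the rule each holds at least 3 contacts, so this share is a description and not a sign of concentration. Recurrent pairs lay closer together than single-cell pairs, with a median bin distance of 17 (quartiles 9 and 29) against 32 (17 and 53). The share of pairs that recurred was 5.06% at bin distances of 5 to 9, 3.01% at 10 to 19, 1.8% at 20 to 39 and 0.346% at 40 or more. By chromosome it ran from 0.889% on chromosome 1 to 4.11% on chromosome 19, where most possible distances are short. Single-cell pairs called matched below are therefore those of the same chromosome and bin distance. Comparisons within a cell, or by level in the other maps, were matched on bin distance without the chromosome. For 1 recurrent pair, the farthest apart, no single-cell pair matched.

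In cells outside the listed ones, the recurrent pairs also held more contacts. They had 11.5 contacts on average in the pool remainder, against 8.03 in matched single-cell pairs, a ratio of 1.43. The ratio was above 1 on 19 of 19 autosomes, from 1.26 on chromosome 18 to 1.60 on chromosome 16. Over the members hit in each cell it was 1.45 ± 0.0323 (SD, n = 10), although members of different cells overlap by the rule. Of the members, 77.9% lay above the mean of all pairs of their chromosome and distance in the remainder, where 42% of all pairs and 53.6% of all single-cell pairs did. No contact was found in the remainder at 6 members (0.280%), against 3.20% of matched single-cell pairs and 7.23% of all single-cell pairs, which lie farther apart.

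The ensemble showed the same order with a smaller contrast. Recurrent pairs had 207.6 ensemble contacts on average and matched single-cell pairs 154.1, a ratio of 1.347, which was above 1 on 19 of 19 autosomes (1.15 on chromosome 19 to 1.59 on chromosome 4). After balancing, which evens out the total contacts of each bin, the ratio was 1.25, from 1.10 on chromosome 19 to 1.38 on chromosome 2. In the ensemble as deposited, 62.6% of members lay above the mean of their chromosome and distance. The share was 36.3% over all pairs and 46.1% over all single-cell pairs. After balancing, 82.4% of members lay above it, against 47.6% of all pairs and 59.3% of all single-cell pairs. No member was without an ensemble contact. The lowest member had 12 contacts, the median was 163.5 and the highest 1106.

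**Figure D1:**
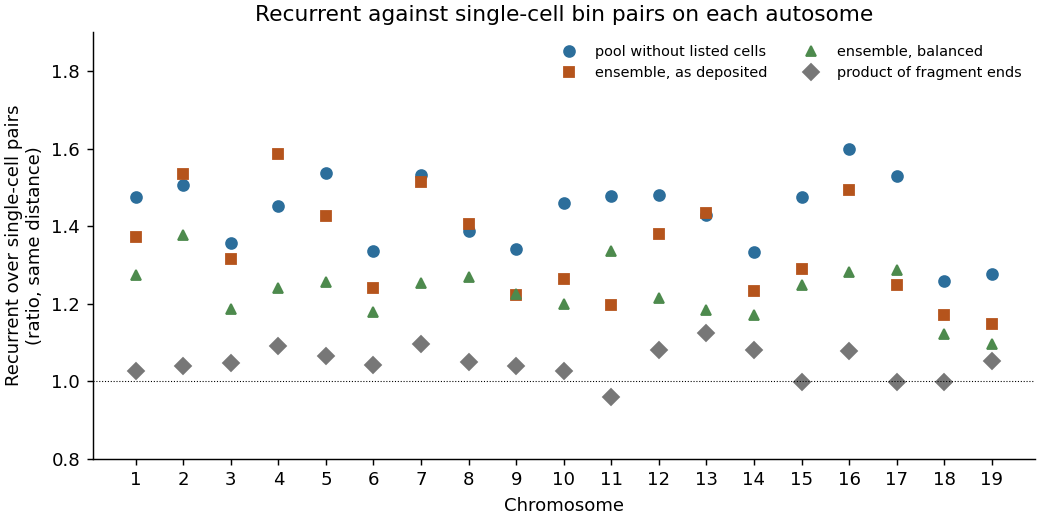
Ratio of recurrent to single-cell bin pairs of the same distance on each of the 19 autosomes (x axis), for the mean count in the pool without the listed cells, in the ensemble as deposited and balanced, and for the product of fragment ends (y axis, ratio; dotted line at 1). Both maps lie above 1 on every autosome, while fragment ends lie between 0.959 on chromosome 11 and 1.13 on chromosome 13.

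Fragment ends are the places where a contact can be recorded, so bins with more of them can hold more contacts. The product of the fragment ends of both bins was 1.04 times that of matched single-cell pairs, and it was above 1 on 15 of 19 autosomes. The bins of members held 126 to 827 fragment ends, with a median of 567. With counts divided by this product, the ratio was 1.34 in the pool remainder and 1.27 in the ensemble. Sorted into 5 equal groups by the product at each distance, 0.900% of pairs recurred in the lowest group and 1.8% in the highest. The same sorting by the pool remainder gave 0.135% and 3.55%, and by the balanced ensemble 0.113% and 3.35%. The range between the lowest and highest group was thus wider for contact levels than for fragment ends.

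Levels moved with the number of cells over the whole range, also outside the rule. Over the mean of all pairs of the same chromosome and distance, the pool remainder stood at 0.880 for pairs in no cell, 1.21 in 1 cell, 1.47 in 2 cells, 1.63 in 3 cells, 1.83 in 4 cells and 2.10 in 5 or 6 cells. The balanced ensemble gave 0.934, 1.11, 1.24, 1.34, 1.43 and 1.59 in the same order. Against matched single-cell pairs, the pool ratio was 1.25 for pairs just outside the rule and 1.39 for those just inside it. The step between 2 and 3 cells was thus no larger than its neighbours, and the rule divides a graded series.

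**Figure D2:**
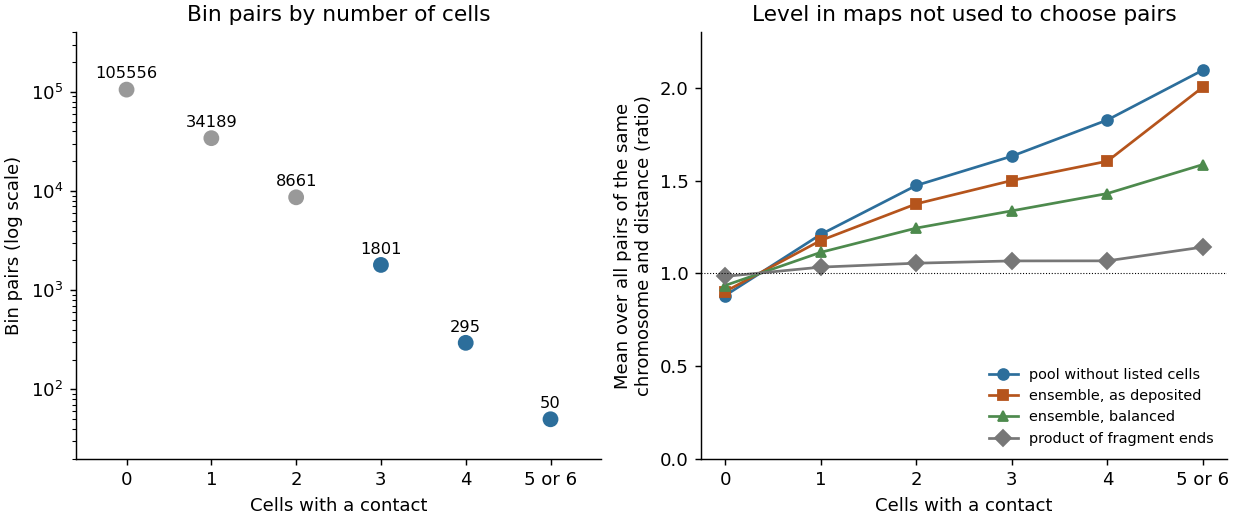
Left, the number of bin pairs (y axis, log scale) by the number of cells with a contact (x axis), with recurrent pairs in blue. Right, the mean level of the same pairs over all pairs of their chromosome and distance (y axis, ratio) in the pool without the listed cells, the ensemble as deposited and balanced, and for fragment ends. The pool value climbs from 0.880 to 2.10 and fragment ends from 0.983 to 1.14.

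Recurrent pairs mostly joined bins of the same class. Both bins shared a class in 80.6% of members (1727 of 2143 with a class and a match; 95% Wilson interval 78.9 to 82.2), against 62.2% of matched single-cell pairs, a difference of 18.3 points. Over all long pairs the share was 52.5%. The difference was above 0 on 19 of 19 autosomes, from 12.6 points on chromosome 15 to 27.8 on chromosome 17. Wilson intervals here cover counting error alone, and neighbouring bin pairs are not independent. Class 2 with class 2 made up 60.2% of members against 46.3% of matched single-cell pairs, class 1 with class 1 20.4% against 16.0%, and mixed pairs 19.4% against 37.8%. The difference for class 1 with class 1 was not general. It ran from -4.20 points on chromosome 19 to 17.7 on chromosome 4, and was also below 0 on chromosomes 10, 11 and 14. The 2 bins were also closer in eigenvector value, the measure behind the class. The mean difference was 0.0446 in members and 0.0782 in matched single-cell pairs. Without matching, the median difference was 0.0201 in pairs seen in 3 cells, 0.0312 in 2 cells and 0.0526 in 1 cell, at median bin distances of 18, 24 and 32. With classes called on the ensemble without balancing, the difference in same-class share was 3.57 points.

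Pairs of both classes recurred at nearly the same rate. Of class 1 pairs 2.25% recurred (438 of 19456; 2.05 to 2.47), of class 2 pairs 2.25% (1290 of 57403; 2.13 to 2.37), and of mixed pairs 0.599% (416 of 69489; 0.544 to 0.659). The greater number of class 2 members thus went with the greater number of class 2 pairs. At bin distances of 5 to 9 the shares were 7.58%, 7.43% and 2.43%, and at 20 to 39 they were 2.89%, 2.97% and 0.592%. At 40 or more, class 1 pairs recurred in 0.676% (0.536 to 0.851), class 2 pairs in 0.503% (0.429 to 0.589) and mixed pairs in 0.153% (0.118 to 0.197). The intervals of the same-class pairs overlap in each distance range, and those of mixed pairs lie below both.

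**Figure D3:**
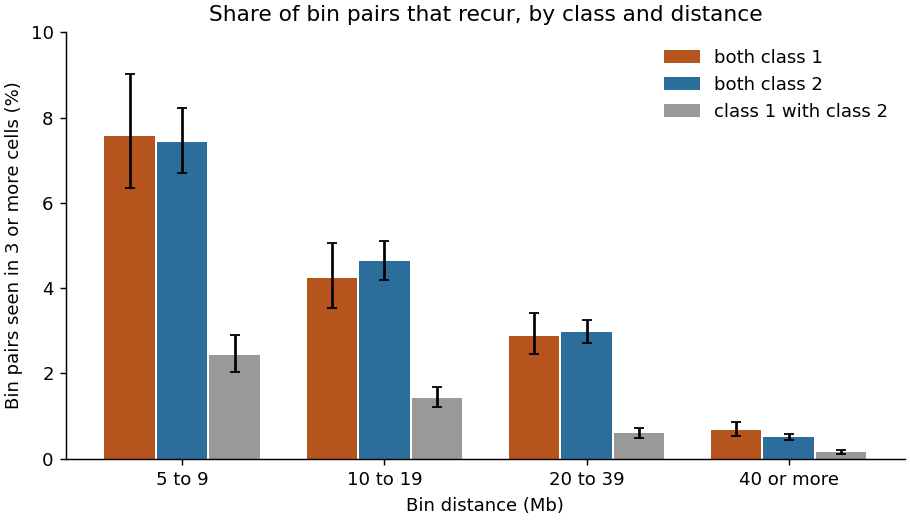
Percent of bin pairs seen in 3 or more cells (y axis) by bin distance in Mb (x axis), for pairs of both class 1, both class 2 and mixed bins; bars are shares and error bars 95% Wilson intervals. Mixed pairs are lowest in each range, at 2.43% for the nearest and 0.153% for the farthest.

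The gap between class 1 and class 2 pairs was wider in the ensemble as deposited than in the single-cell pool. Over the mean of their chromosome and distance, all class 1 pairs stood at 2.25 in the ensemble and 1.59 in the pool remainder. All class 2 pairs stood at 0.859 in the ensemble but 1.28 in the remainder, and at 1.17 after balancing. Class 2 members reached 1.15 in the ensemble, 1.41 after balancing and 1.75 in the remainder, and class 1 members 2.72, 1.52 and 1.81. The 2 classes of members thus stood close in the single-cell pool and far apart in the ensemble as deposited. Their product of fragment ends was 1.31 of the mean in class 1 members and 0.966 in class 2 members. Whether this density accounts for the ensemble gap was not tested.

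Recurrent pairs exceeded single-cell pairs of their own class as well. Matched on class, chromosome and distance, the ratio in the pool remainder was 1.25 for class 1 pairs (n = 428), 1.26 for class 2 pairs (n = 1288) and 1.58 for mixed pairs (n = 414). In the balanced ensemble it was 1.15, 1.12 and 1.28. Mixed members were thus the ones that differed most from single-cell pairs of their class. They held 8.93 contacts on average in the remainder, against 12.3 in class 1 and 12.2 in class 2 members, and 5.64 in single-cell mixed pairs. By distance, the pool ratio was 1.39 at 5 to 9, 1.45 at 10 to 19, 1.49 at 20 to 39 and 1.39 at 40 or more.

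Each cell was also set against pairs that recurred without it. For each cell in turn, pairs seen in 3 or more of the other 9 cells were taken, and the number the cell hit was divided by the number expected from pairs seen in exactly 1 of the other 9 cells. The cell hit more of them than expected in 10 of 10 cells, with a mean ratio of 1.43 ± 0.136 (SD, n = 10). Cell 7 had the highest ratio, 1.57 (130 hits against 82.6), followed by cell 2 with 1.56 (184 against 117.7) and cell 10 with 1.55 (89 against 57.3). Cell 5 had 1.52, cell 6 1.46, cell 9 1.43, cell 1 1.38, cell 3 1.37 and cell 4 1.25. Cell 8, cut with Dpn II, had the lowest, 1.17 (91 against 77.8). The sets of other cells overlap between the cells left out, so the 10 ratios are not independent and no p-value is given.

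The mean ratio was lower with pairs matched on their own level in the other maps. Pairs at each distance were therefore put into 5 groups by their level, and matched within the group. By ensemble count, the mean ratio was 1.28 ± 0.121 (SD, n = 10), and 9 of 10 cells lay above 1. With class pair and the balanced ensemble it was 1.21 ± 0.0983 (SD, n = 10), and with the pool remainder 1.15 ± 0.103 (SD, n = 10), again with 9 of 10 cells above 1. Cell 8 stood at 0.984, 0.980 and 0.899 in these. Matched instead on the product of the pool contact ends of both bins, a measure of the bins and not of the pair, the mean ratio was 1.39 ± 0.134 (SD, n = 10). All 10 cells then lay above 1, with cell 8 lowest at 1.09. The Bgl II cells alone ran from 1.20 in cell 3 to 1.39 in cell 7 for ensemble counts, and from 1.08 in cell 3 to 1.25 in cell 2 for the pool remainder. Each group is wide, and pairs within it still differ in level. Cell 8 is the only Dpn II cell and is set here against levels in Bgl II maps, so enzyme and cell cannot be told apart.

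**Figure D4:**
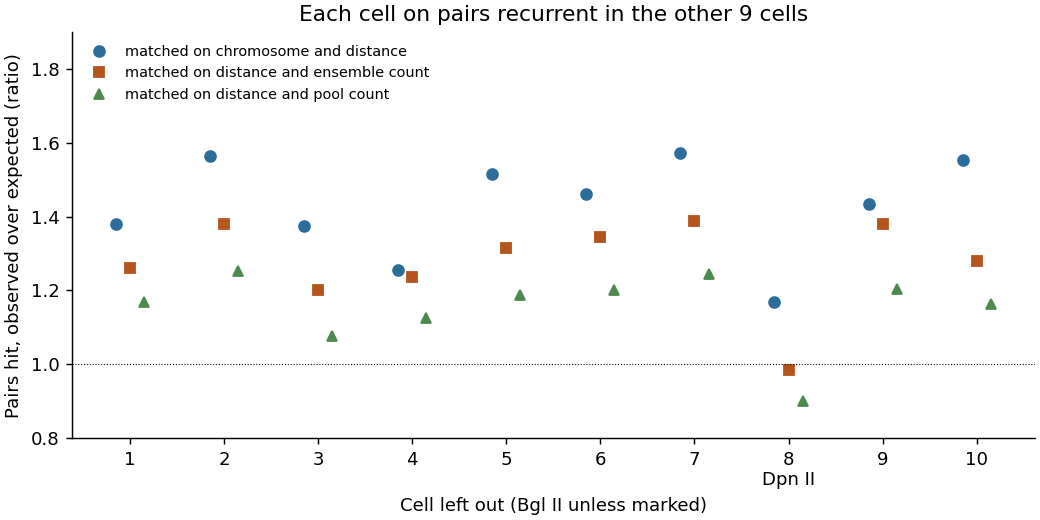
Pairs hit over pairs expected (y axis, ratio; dotted line at 1) for each cell left out (x axis), on pairs recurrent in the other 9 cells, with 3 ways of matching. The 9 Bgl II cells lie above 1 in all of them, and cell 8 is lowest in all, at 1.17, 0.984 and 0.899.

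The deepest cell hit the most members and the shallowest the fewest. Cell 1 had a contact in 1101 members (51.3%), cell 2 in 825, cell 3 in 793, cell 6 in 754, cell 4 in 741, cell 5 in 715, cell 7 in 598, cell 9 in 501, cell 8 in 449 and cell 10 in 358 (16.7%). Of the long pairs that a cell hit, recurrent pairs made up 12% ± 1.23 (SD, n = 10), lowest in cell 4 (10.3%) and highest in cell 10 (13.8%), the shallowest cell. Members were spread over 303 different sets of cells. The most frequent set, cells 1, 2 and 4, held 52 members. Cells 1 and 2 shared the most members, 373, and cells 8 and 10 the fewest, 52. Without cell 1, 1261 pairs were seen in 3 or more cells, and their pool ratio was 1.42.

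The class makeup of members was alike in the cells. Members of different cells overlap by the rule, so the 10 values are not independent and likeness is in part built in. Among members hit in a cell, both bins shared a class in 80.7% ± 2.10 (SD, n = 10), lowest in cell 8 (76.8%) and highest in cell 3 (83.9%). Matched on distance, this was above the cell's own single-cell pairs in 10 of 10 cells, by 17.8 points ± 3.08 (SD, n = 10), with 14.2 points in cell 10 and 22.9 in cell 4. Cell 8 had the highest share of class 1 pairs among its members, 25.2%, next to 24.4% in cell 10, and the lowest share of class 2 pairs, 51.7%.

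A cell often held a single contact in a member. In 843 members (39.3%) at least 1 cell had 2 or more contacts, and the most in 1 cell was 7. By the rule a member is hit by several cells, and any of these can hold 2 or more contacts. No such share was worked out for matched pairs, so the 39.3% is a description. Of the members a cell hit, 12.8% ± 6.14 (SD, n = 10) held 2 or more of its contacts, lowest in cell 9 (5.39%) and highest in cell 1 (23.9%). Single-cell pairs at the same distances gave 10.5% ± 5.21 (SD, n = 10). The share was higher in members in 8 of 10 cells, with a mean difference of 2.35 points ± 2.06 (SD, n = 10). It was lower in cell 8 by 2.32 points (6.46% against 8.78%) and in cell 4 (11.47% against 11.55%).

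Contacts of different cells in the same bin pair were compared by position. Member bins held a median of 567 Bgl II fragment ends, so identical contacts would be rare in any case. No expected number was worked out, so the counts below are a description. Among 10647 pairs of contacts from different cells within members, none was identical and 55 (0.517%) shared a fragment end. The median distance between such contacts, taken at the end where they lay farther apart, was 439.8 kb, and 439.7 kb in the 8661 pairs seen in 2 cells. Both ends lay within 100 kb for 4.40% of these contact pairs in members and 4.55% in pairs seen in 2 cells. In 405 members (18.9%) at least 1 pair of cells had contacts within 100 kb at both ends, against 497 pairs (5.74%) of those seen in 2 cells. The nearest contacts of different cells lay a median of 199.9 kb apart in members and 407.1 kb in pairs seen in 2 cells. Members have more pairs of contacts from which the nearest is taken. Taken per pair of contacts, the distances in members and in pairs seen in 2 cells were thus close to each other.

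The pairs seen in the most cells show the range of levels. The pair on chromosome 9 of chr9:46000000-46999999 and chr9:73000000-73999999, both class 2, was seen in 6 cells. It held 2 contacts each in cells 1 and 6, 1 each in cells 4, 5, 7 and 9, and none in the others. The pool remainder had 16 contacts there, 2.82 times the mean of its chromosome and distance, and the ensemble 284, 2.24 times. The other pair in 6 cells was chr5:130000000-130999999 with chr5:145000000-145999999. Cell 4 had 2 contacts there, cells 1, 2, 3, 7 and 10 had 1 each, and cells 5, 6, 8 and 9 had none. The remainder had 26 contacts (4.04 times the mean) and the ensemble 756 (4.89 times). Both bins counted as class 1, though the second had an eigenvector value of 0.00117, at the border between classes.

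Of the 48 pairs seen in 5 cells, the one farthest apart joined the bins at 10 and 72 Mb of chromosome 17, both class 2. Bins are named here by their lowest position in Mb. Cell 6 had 3 contacts there, cell 7 had 2, and cells 2, 3 and 9 had 1 each. The remainder had 18 contacts, 5.87 times the mean, while the ensemble had 176, 2.73 times. In contrast, the bins at 3 and 58 Mb of chromosome 3 held 1 contact each in cells 1, 5, 6, 8 and 10 but none in the remainder, where a count of 0 allows up to 3. Single-cell pairs matched to it had 3.29 there on average, and the ensemble had 36 contacts, 0.735 of the mean. It was a mixed pair.

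The other 6 of the 10 pairs seen in the most cells lay between these. On chromosome 1, the bins at 107 and 158 Mb (class 1) had 4 contacts in the remainder and those at 33 and 74 Mb (class 1) had 10, with 188 in the ensemble at both. The bins at 115 and 145 Mb of chromosome 3, a mixed pair with 1 bin at the border, had 11 and 240. Those at 109 and 133 Mb of chromosome 7 (class 1) had 18 and 540, 2.91 and 4.03 times the mean. Those at 67 and 91 Mb of chromosome 17 (class 2) had 6 and 175, and those at 50 and 74 Mb of chromosome 18 (class 2) had 11 and 247. All except the chromosome 3 pair without a pool contact stood above the mean in both maps. Of all 50 pairs in 5 or 6 cells, 45 stood above the mean in the remainder, 40 in the ensemble and 45 after balancing. Over all long pairs the shares were 42%, 36.3% and 47.6%, and over all members 77.9%, 62.6% and 82.4%. Of the 50 pairs, 11 joined class 1, 29 class 2 and 10 mixed bins. Their same-class share, 80%, was near the 80.6% of all members.

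**Figure D5:**
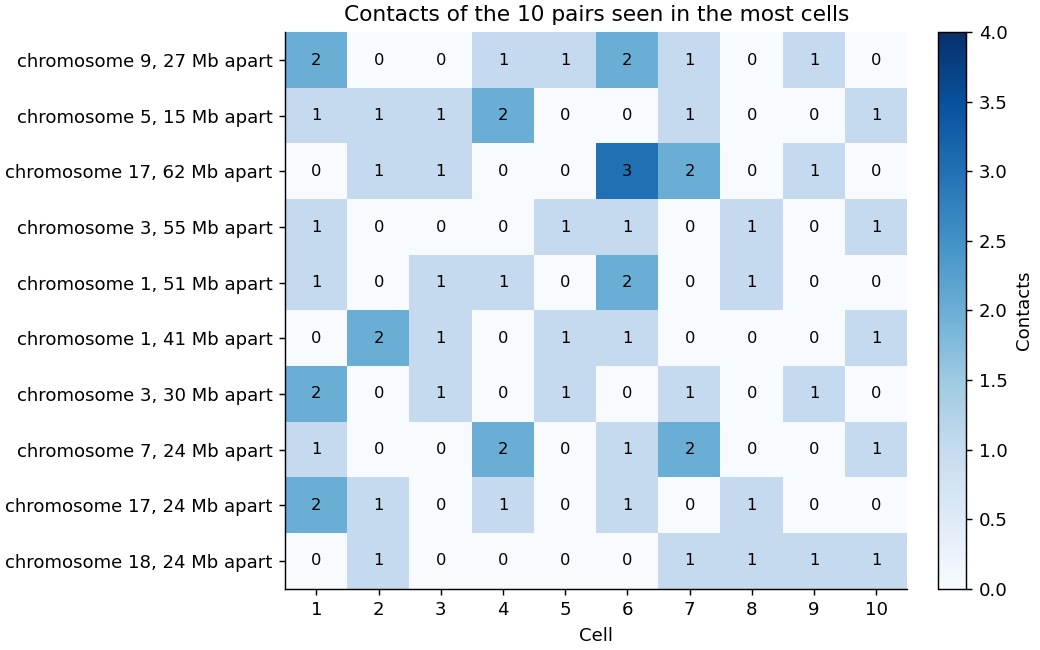
Contacts of the 10 bin pairs seen in the most cells (rows, with the bin distance in Mb) in each of the 10 cells (columns); the colour and the number give contacts. Most cells that hit a pair have 1 contact, and the highest value is 3, in cell 6 on chromosome 17.

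The farthest recurrent pair spanned 125 Mb of chromosome 5, from the bin at 24 Mb to that at 149 Mb, and was seen in cells 2, 3 and 5. Both bins were class 1, and the remainder had 3 contacts (3.75 times the mean) and the ensemble 61 (3.43 times). The next joined the bins at 4 and 115 Mb of chromosome 10 in cells 2, 4 and 5, with 1 contact in the remainder and 27 in the ensemble. The bins at 48 and 145 Mb of chromosome 7 had 1 and 31, and those at 47 and 143 Mb of chromosome 6 had 4 and 40. The bins at 23 and 116 Mb of chromosome 5, seen in cells 6, 8 and 9, had 6 and 126, 3.45 and 2.81 times the mean. At these distances counts in the remainder are too low to rank pairs.

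The members with the highest ensemble level all joined class 1 bins. The bins at 157 and 180 Mb of chromosome 2 held 875 ensemble contacts, 7.53 times the mean, and 26 contacts in the remainder, 4.46 times. They were seen in cells 2, 3, 6, 8 and 9, with 2 contacts in cell 3. The bins at 79 and 126 Mb of chromosome 10 stood at 7.0 times the mean, those at 106 and 154 Mb of chromosome 4 at 6.77, those at 89 and 95 Mb of chromosome 3 at 6.75 and those at 4 and 85 Mb of chromosome 12 at 6.05. After balancing, these 5 pairs stood at 2.49 to 3.49. The chromosome 12 pair stood highest among them in the remainder, at 7.63 times the mean with 13 contacts, and 4 of its 6 single-cell contacts came from cell 2.

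The members with the lowest ensemble level differed in how they stood elsewhere. The mixed pair at 15 and 77 Mb of chromosome 15 had 14 ensemble contacts, 0.188 of the mean, and 1 in the remainder, 0.375 of the mean. The pair at 97 and 121 Mb of chromosome 12 (0.214) had no class, as its second bin, with 130 fragment ends, was left out of the balanced matrix. The class 2 pairs at 56 and 119 Mb of chromosome 1 (0.247), at 81 and 86 Mb of chromosome 2 (0.255) and at 101 and 110 Mb of chromosome 7 (0.276) stood at 0.930, 1.21 and 1.15 after balancing. In the remainder these 3 stood at 0.868, 0.939 and 0.781. The chromosome 15 pair stood at 0.383 after balancing. It and the chromosome 1 pair were below the mean in both maps, with and without balancing.

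Some bins took part in many members. Of 2401 autosomal bins, 1885 (78.5%) were in at least 1 member, the median was 2 members and 148 bins were in 5 or more. The bin at 40 Mb of chromosome 15 led with 10 members among its 92 long pairs (10.9%), reached by 9 cells, at distances of 7 to 48 Mb. All 10 partners were class 2, as was the bin. Its members stood at 0.744 of the mean in the ensemble, 1.36 after balancing and 2.04 in the remainder. The bins at 161 and 178 Mb of chromosome 2 had 9 members each, all with class 2 partners, and stood at 2.92 and 2.78 in the remainder.

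With 8 members each followed the bins at 171 Mb of chromosome 1, 73 Mb of chromosome 9, 66 Mb of chromosome 11 and 13 Mb of chromosome 15. All 7 of these bins were class 2, while 37.1% of all bins with a class were class 1. There were also more class 2 pairs (57403) than class 1 pairs (19456), and both recurred at 2.25%. Class 2 bins thus have more same-class partners, and the counts of members per bin were not corrected for this. Bins with 7 members were of both classes, with class 1 at 118 Mb of chromosome 2 and 125 Mb of chromosome 4. The members of the 7 leading bins stood at 1.63 to 2.92 times the mean in the remainder. The fragment ends of these 7 leading bins, 529 to 587, were near the medians of their chromosomes, 541 to 611. The long pairs of the bin at 161 Mb of chromosome 2 stood at 0.779 of the mean in the remainder over all its partners, against 2.92 over its members. For the other 6 bins the value over all partners was 1.21 to 1.42.

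Members also lay next to each other on the map. An adjacent bin pair was a member for 34.3% of members (735), against 23.2% of matched single-cell pairs. Members and their neighbours were chosen from the contacts of the same cells, and pairs were not matched on contact level. These shares are therefore a description and not a test. The members formed 1706 groups, of which 1411 were lone pairs and 15 held 5 or more. The largest, with 8 members, joined the stretches from 169 to 172 Mb and from 188 to 193 Mb of chromosome 1. All were class 2 pairs, 10 cells took part, and their mean level was 3.14 in the remainder and 2.76 in the ensemble. Cell 1 hit 87.5% of these members. A group of 7 joined 140 to 145 Mb with 160 to 163 Mb of chromosome 2, at 3.07 in the remainder and 2.25 in the ensemble. Neighbouring members can share the contacts of a single cell that joined both stretches, so groups are not independent of each other's pairs.

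Three-way sets were sought in which every pair of bins was a member. There were 60 such triangles on 17 chromosomes, with a median span of 30 Mb and a largest span of 81 Mb. In 48 (80%) all bins were of 1 class, 44 in class 2 and 4 in class 1. Triangles are built from members, of which 80.6% joined bins of the same class. No number of triangles was worked out for matched single-cell pairs, so these counts are a description. At least 1 cell held all 3 pairs in 25 triangles, and in 2 of these triangles 2 cells each did so. One of these joined the bins at 149, 161 and 171 Mb of chromosome 2, complete in cells 5 and 7. Its pairs held 15, 35 and 16 contacts in the remainder, 2.77 times the mean on average, and were seen in 4 cells each. The other joined the bins at 19, 28 and 71 Mb of chromosome 1, complete in cells 4 and 8, at 1.33 times the mean in the remainder and 0.726 in the ensemble.

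Toward chromosome ends the difference was small. The first 10 bins of a chromosome, next to the centromere in mouse, held the first end of 11.2% of members and 10.4% of matched single-cell pairs. The last 10 bins held the second end of 12.9% and 10.6%.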

How the data were processed

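Per the file headers, the deposited files list genomic positions in bp, a chromosome and a coordinate for both ends of each contact, and the authors give no other unit. The submitters' processing notes name the mm9 build. Aligner and filters: not given in the sources used here. Autosomal cis contacts were counted in bins (coordinate divided by 1000000, floor) with Python 3.11.15, numpy 2.4.6, pandas 2.3.3, scipy 1.17.1 and matplotlib 3.10.9. Contacts with the coordinates of a listed cell were removed from the pool. Fragment ends are distinct ensemble coordinates. Classes follow from the first eigenvector (positive or negative) of each chromosome's ensemble correlation matrix after 50 iterations of balancing, without bins under 0.2 of the median row sum, oriented by fragment ends. Pairs were matched within chromosome and bin distance. Each cell was left out in turn; the planned sign-flip test over cells was dropped, since on simulated maps without an effect it passed too often, as the sets of cells overlap. Named pairs were those in the most cells (larger distance first), the 5 farthest, the 5 highest and 5 lowest in the ensemble, and the bins in the most members, with ties. The members, lists and rule were chosen with earlier results of these data known. Alternatives tried were each cell left out, other numbers of cells, bin sizes, offset, distance, thinned cells, bin filter, balancing and matching. Intervals and limits at a count of 0 (3 counts) cover counting error only.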

Additional observations from a re-analysis of the deposited data

Results flagged for a closer look

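Among 20 sets of values over the 10 cells, 3 contained a cell that stood apart, and chance marks about 1 set in 20. All 3 were ratios of pairs hit to pairs expected in cell 8, the Dpn II cell, on pairs recurrent in the other 9 cells, and they share the same hits. The ratio of cell 8 was 0.984 with pairs matched on distance and ensemble count, next to 1.20 in cell 3 and up to 1.39 in the rest. It was 0.980 matched on distance, class pair and balanced ensemble count, next to 1.13, and 0.899 matched on distance and pool count, next to 1.08. Matched on chromosome and distance alone it was 1.17, and on pool contact ends 1.09, neither of which was set apart. With 1 Dpn II cell, the part of the enzyme in this was not tested.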

How the results depend on the processing

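Directions were kept in every alternative run for the 7 quantities below, with held-out ratios taken as the mean over cells. Single cells did not all keep the direction of that mean. The count of recurrent pairs, 2146, depended on depth and bin size: 10807 pairs with 2 or more cells, 345 with 4 or more, 282 with 500 kb bins, 6640 with 2 Mb bins (distance of 3 bins or more), 682 with cells thinned to 11156 contacts and 1261 to 1877 with each cell left out. In the same settings for 2 cells, 4 cells, 500 kb and 2 Mb, the ensemble ratio was 1.23, 1.48, 1.46 and 1.47, and the pool ratio 1.29, 1.64, 1.64 and 1.63. With bins shifted by 500 kb they were 1.42 and 1.47, and after division by fragment ends 1.27 and 1.34; balancing gave 1.25 for the ensemble. The fragment-end ratio was 1.03 with 2 cells and 1.06 with 500 kb, 2 Mb or shifted bins. The same-class difference was 12 points with 2 cells, 27.3 with 2 Mb bins and 3.57 with unbalanced classes. The held-out ratio was 1.27 with 2 cells and 1.74 with 4. Matched on the ensemble it was 1.49 with 4 cells. Matched instead on the pool it was 1.15, on class and balanced ensemble 1.21 and on pool contact ends 1.39, all 3 chosen after the data were seen. With 500 kb bins 7 of 10 cells lay above 1 (lowest 0.290), and 6 of 10 when matched on the ensemble (lowest 0.241). With thinned cells the ratio was 1.31 (9 of 10 above 1, lowest 0.970), and 1.19 matched on the ensemble (9 of 10, lowest 0.858). With each cell left out, the ensemble ratio was 1.31 to 1.37, the pool ratio 1.42 to 1.44, the same-class difference 16.4 to 19.2 points, the fragment-end ratio 1.03 to 1.05, the held-out ratio 1.33 to 1.54 and its matched form 1.18 to 1.36. At 11156 to 30665 contacts per cell, a pair without a contact in a cell is not shown to be apart in it. No paired analysis was possible because the ensemble is a single map that shares no replicate with the cells.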
